A study of Mus musculus with 9 samples.

Results

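Loss of Tmsb4x was examined in the injured mouse hippocampus by setting 3 RNA-seq libraries of Tmsb4x conditional knockout mice after mild traumatic brain injury (mTBI) against 3 libraries of wild-type mice after the same injury. These are 6 of the 9 libraries of the study, taken by their genotype and treatment labels, and every gene of the count table entered the comparison. The injury was 1 mild controlled cortical impact, a blow of set depth and speed to the exposed cortex. The labels number 3 replicates a group, and the titles do not say whether each is a separate mouse. Hippocampal cells of mice that express the red protein tdTomato in neurons were dissociated with trypsin, sorted live on tdTomato and sequenced in bulk. The other 3 libraries, labelled wild type with a sham operation, had the surgery without the impact. They are quoted only as side values, since no knockout mice with a sham operation were analysed here and an effect of genotype cannot be told apart from one that needs the injury. The driver of the deletion, the deleted exons, the sex and age of the mice and the time after injury are not given in the sources used here.

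Thymosin beta 4, the product of the X-linked gene Tmsb4x, is a short peptide that binds single actin subunits and keeps them out of filaments. It shares this pool of free actin with profilin, which feeds subunits to growing filament ends, and with cofilin, which severs filaments and returns subunits. The amount of free actin is in turn read by the coactivator MRTF, which works with the transcription factor SRF on genes of actin, actin-binding proteins and immediate early factors. Thymosin beta 10, encoded by Tmsb10, is the close paralog with the same actin-binding role. In the brain Tmsb4x RNA is known from neurons and is abundant in microglia.

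The coding sequences of the 2 beta-thymosins that passed the count filter are shown because their likeness bears on whether reads from the coding part of the paralog could be counted for the deleted gene. Capitals mark the bases at which the 2 sequences differ, without the stop codon, read 5′ to 3′ on the coding strand from the GENCODE M21 transcripts of GRCm38 (Tmsb4x at X:167207504-167208036 and Tmsb10 at 6:72957621-72958012, positions that include the introns).
Tmsb4x: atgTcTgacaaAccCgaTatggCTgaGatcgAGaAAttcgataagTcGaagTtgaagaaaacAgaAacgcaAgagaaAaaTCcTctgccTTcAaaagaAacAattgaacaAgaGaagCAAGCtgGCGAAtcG
Tmsb10: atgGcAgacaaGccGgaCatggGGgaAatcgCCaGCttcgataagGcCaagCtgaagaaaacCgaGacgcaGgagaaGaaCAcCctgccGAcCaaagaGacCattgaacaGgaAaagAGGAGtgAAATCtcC
Both run to 132 bases without a gap, with 92 identical bases and 40 that differ, an identity of 69.7%. The longest identical run was 10 bases, against reads of 150 bp. The other 4 beta-thymosin genes of the table (Tmsb15a, Tmsb15b1, Tmsb15b2 and Tmsb15l) did not pass the count filter.

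Tmsb4x was lower in every knockout library than in every wild-type mTBI library, and it was the only gene of 19437 tested (0.00514%) that passed the threshold, an adjusted p under 0.05. The gene (ENSMUSG00000049775, X:167207093-167209315 of GRCm38, minus strand) had 70, 109 and 108 counts in knockout replicates 1, 2 and 3, and 35061, 21678 and 11921 counts in wild-type mTBI replicates 1, 2 and 3. In CPM, which correct the counts for library size and composition (TMM), these were 1.83, 2.79 and 2.77 in the knockout (2.46 ± 0.549, SD, n = 3) and 897, 555 and 298 in the wild type (583 ± 301, SD, n = 3). Tmsb4x fell by 7.88 on the log2 scale (SE 0.46), a 236-fold lower level in the knockout, with an adjusted p of 0.000771 in the quasi-likelihood test of edgeR. An exact two-sided permutation test of the 3 against 3 libraries gave p = 0.1, the smallest that this design allows. The wild-type libraries themselves spread 3-fold, with replicate 1 highest and replicate 3 lowest. The 3 libraries labelled wild-type sham did not stand with the wild-type mTBI libraries: they had 105, 61 and 85 counts, or 2.73, 1.68 and 2.23 CPM, within or just below the range of the knockout. The target gene thus follows the labels of the 6 libraries compared here and goes against the wild-type label of the sham libraries.

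The paralog Tmsb10 was present in all 6 libraries. It was at 155, 119 and 116 CPM in the knockout and at 178, 134 and 161 CPM in the wild type, so that knockout replicate 1 overlapped the wild-type range. The log2 change was -0.28 (SE 0.15, edgeR adjusted p = 0.928), and the exact permutation test gave p = 0.2. No knockout library exceeded the highest wild-type library.

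**Figure D1:**
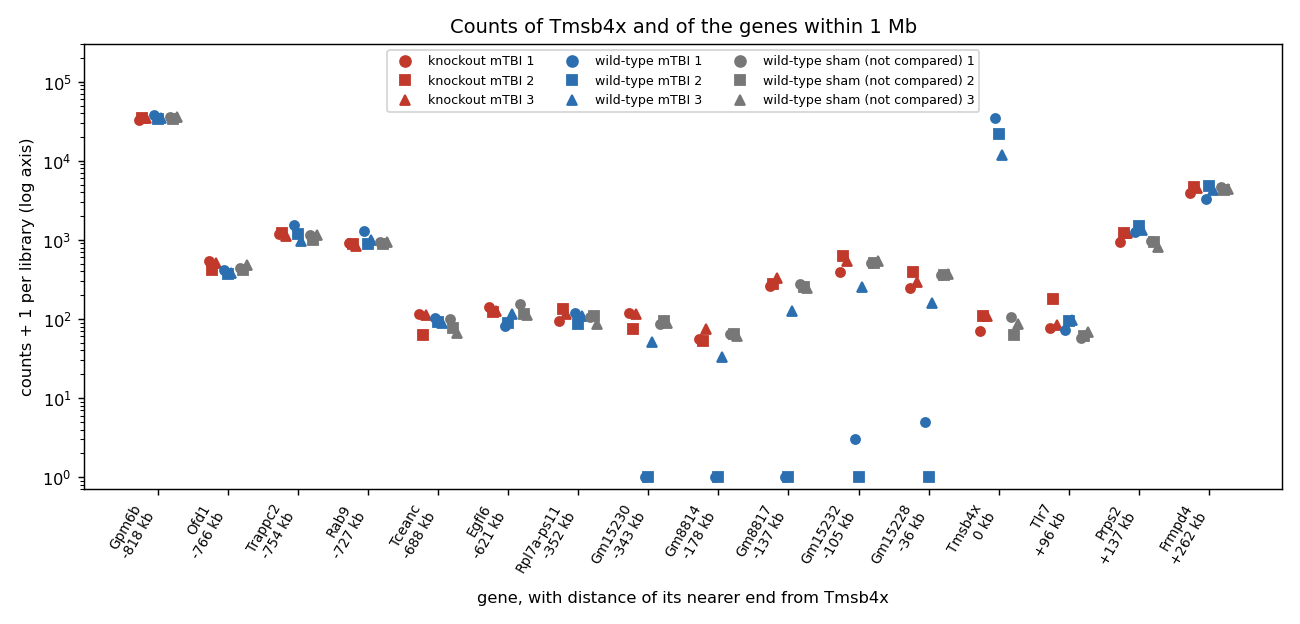
Counts plus 1 on a log axis for Tmsb4x and the 15 other genes within 1 Mb, ordered by position, with 1 point for each of the 3 knockout, 3 wild-type mTBI and 3 sham libraries. Tmsb4x is at 70 to 109 counts in the knockout and 11921 to 35061 in the wild type after mTBI, and 5 genes on 1 side show at most 4 counts in wild-type replicates 1 and 2.

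The region around Tmsb4x differed between the libraries in more than the deleted gene. Of 16 genes within 1 Mb with a mean of at least 10 counts, a window chosen after the values were seen, 5 had at most 4 counts in wild-type mTBI replicates 1 and 2 and were present in the other 4 libraries. They are the long noncoding RNA genes Gm15230, Gm8817, Gm15232 and Gm15228 and the processed pseudogene Gm8814, and they lie together on the same side, 343 to 35.8 kb from Tmsb4x. Gm15232, the most abundant, had 387, 628 and 543 counts in the knockout and 2, 0 and 255 counts in the wild type. Gm8817 had 257, 278 and 325 counts in the knockout and 0, 0 and 124 in the wild type. In both genes wild-type replicate 3 stood between the other wild-type libraries and the knockout, and the same held for Gm15230 (117, 73 and 114 against 0, 0 and 50), Gm8814 (55, 52 and 74 against 0, 0 and 32) and Gm15228 (243, 393 and 296 against 4, 0 and 157). The libraries labelled wild-type sham were at the knockout level, with 514 to 532 counts of Gm15232. None of the 5 passed with all 6 libraries (edgeR adjusted p = 0.928 each), and 4 of them, all but Gm8814, passed as higher in the knockout without wild-type replicate 3. The other 10 neighbours, from Gpm6b to Frmpd4, had log2 changes from -0.26 to 0.46 and none passed.

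Wild-type mTBI replicate 3 also differed from the other 5 libraries in sex-linked RNA. Xist, the RNA that coats the inactive X chromosome of females, was at 837 CPM there and at no more than 0.896 CPM in the others. Ddx3y, a Y-linked gene, was at 0.0499 CPM there and at 49.6 to 58.4 CPM in the others. The replicate with intermediate counts of the 5 neighbours is therefore the single library with female RNA, and the part of sex in the neighbour counts was not tested.

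The 6 libraries held 38298085 to 39590872 counts on genes and 25981 to 26826 genes with at least 1 count, so depth was nearly equal. They were less alike within groups than the sham libraries: the biological coefficient of variation, the relative spread between replicates beyond counting error, was 18.3% in the knockout, 19.4% in the wild type after mTBI and 3.25% in the sham libraries. Without its replicate 1, the wild-type mTBI value was 12.6%, and the knockout value was 16.8% without its replicate 1 and 16.1% without its replicate 2. Markers matched neurons in part only: Camk2a (3414 to 4610 CPM) and Snap25 (1561 to 2158 CPM) were abundant, but so were the myelin gene Mbp (2357 to 4099 CPM) and the astrocyte transporter Slc1a2 (2003 to 2792 CPM), and the microglial receptor Cx3cr1 was present (41.8 to 55.8 CPM). Fewer cells of a type and less RNA per cell cannot be told apart in such bulk samples.

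Beyond Tmsb4x, differences between the groups did not exceed the spread between replicates by the adjusted test. With Tmsb4x as the single gene called lower (0.00514%), no gene was called higher (0%), where DESeq2 called 2 and voom with quality weights called 1. At an unadjusted p under 0.05, 620 genes passed in edgeR (3.19% of those tested), 294 higher (1.51%) and 326 lower (1.68%). The CPM of the groups did not overlap for 1871 genes (9.63%), 863 higher (4.44%) and 1008 lower (5.19%) in the knockout. The signs were close to even, with 49.3% of genes above and 50.7% below 0 and a median log2 change of -0.0036. All genes named below other than Tmsb4x failed the adjusted test, and their values are descriptions of these 6 libraries.

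**Figure D2:**
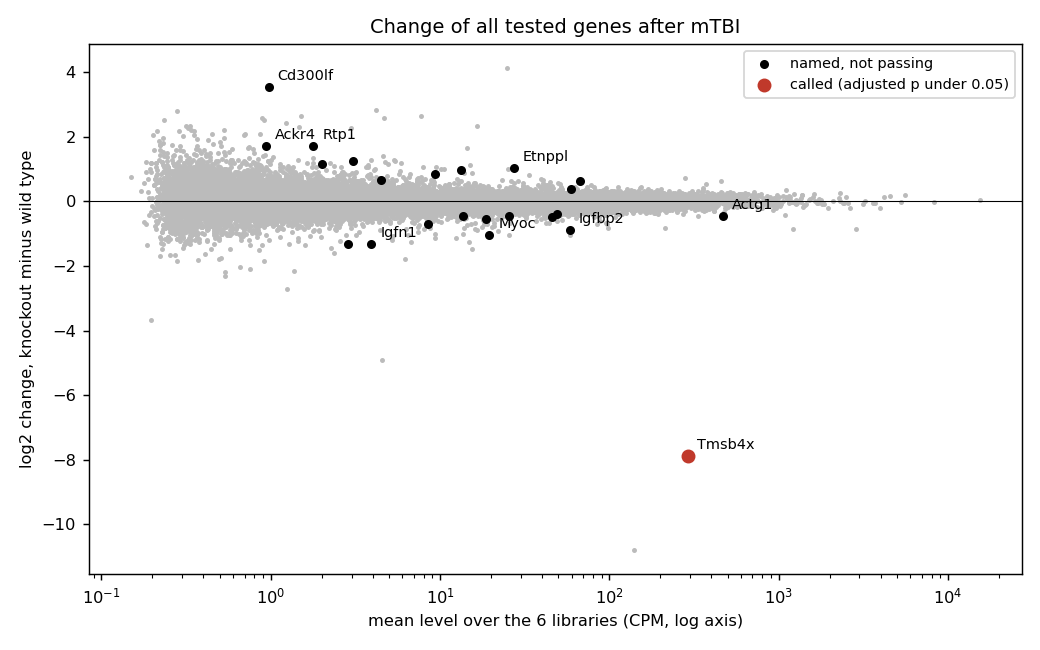
Log2 change, knockout minus wild type after mTBI, against the mean level in CPM (log axis) for the 19437 tested genes, with the called gene as the large point and named genes in black. Tmsb4x at -7.88 is the single called gene, and Etnppl and Myoc lie near 1 and -1.

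Among the genes with higher values in the knockout, Etnppl stood closest to the threshold. Etnppl (3:130617448-130637521) encodes the phospholyase that breaks down phosphoethanolamine and marks astrocytes. It was at 34.8, 40.4 and 34.6 CPM in the knockout and at 19.1, 18.0 and 16.9 CPM in the wild type, groups without overlap. Its log2 change was 1.02 (SE 0.11, edgeR adjusted p = 0.0672), and it passed with DESeq2 (adjusted p = 1.85e-10), with voom quality weights (0.0127), without the count filter (0.00279) and in a fit of all 9 libraries (0.00299). The fit of all 9 libraries also draws on the spread of the sham libraries, which was far smaller (3.25%) than that of the groups compared. The sham libraries were at 12.4 to 13.4 CPM. The astrocyte list as a whole did not share this: 13 of 20 markers were above 0 and the median log2 change was 0.05. Slc1a2, the most abundant of them, had a log2 change of 0.14, and Aqp4, the water channel of astrocyte end-feet, one of -0.35.

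The next genes on the higher side include a hypoxia factor and genes of innate immunity. Hif3a, a hypoxia-inducible factor that also responds to glucocorticoids, was at 14.8, 24.3 and 13.5 CPM in the knockout and 9.54, 8.99 and 8.29 CPM in the wild type. Lyz2, the lysozyme of myeloid cells, was at 9.85, 15.4 and 10.7 against 6.68, 5.48 and 7.81 CPM. In both genes knockout replicate 2 was the highest library. Cd300lf, an inhibitory receptor of myeloid cells, was at 2.74, 2.27 and 0.360 against 0.102, 0.0512 and 0.2996 CPM, so that the groups nearly met. It passed only with DESeq2 (adjusted p = 0.0151).

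Other genes of that side were Rtp1, a chaperone of odorant receptors (log2 change 1.71), Ackr4, a scavenging chemokine receptor (1.699), Ebf3, a transcription factor of developing neurons (1.26), and Strc, the hair-bundle protein stereocilin (1.17). Each of these was under 7 CPM in every library. At higher levels stood Cbx7, a Polycomb subunit, with 71.5, 71.5 and 59.4 against 49.4, 57.3 and 48.3 CPM, and Nvl, an ATPase of ribosome assembly, with 58.8, 97.5 and 88.5 against 46.1, 57.0 and 56.8 CPM. In both genes the closest libraries of the groups were about 2 CPM apart. The mitochondrially encoded ATP synthase subunit mt-Atp8 was at 5.01, 5.70 and 5.68 against 3.76, 3.76 and 2.97 CPM. Its coding sequence overlaps that of mt-Atp6, so its counts are uncertain.

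On the lower side, Myoc followed Tmsb4x. Myoc (1:162639155-162649693) encodes myocilin, a secreted glycoprotein known from the meninges and the eye. It was at 12.4, 11.3 and 14.6 CPM in the knockout and at 29.4, 22.2 and 27.4 CPM in the wild type, with no overlap. The log2 change was -1.04 (SE 0.15, edgeR adjusted p = 0.459), and the gene passed with DESeq2 (4.43e-06), without the count filter (0.0169) and in the fit of all 9 libraries (0.0379). That last fit again draws on the smaller spread of the sham libraries. For Myoc the sham libraries lay between the groups, at 19.3 to 21.1 CPM. The fibroblast and meningeal list as a whole did not share its direction. Of the 19 markers, Myoc and Igfbp2 included, 11 were above 0 and the median log2 change was 0.08.

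Nr4a2 had replicates close to each other in both groups. This activity-induced nuclear receptor (2:57106830-57124003) was at 39.4, 37.2 and 37.5 CPM in the knockout and at 53.2, 54.2 and 54.2 CPM in the wild type, and the sham libraries at 51.8 to 55.7 CPM were on the wild-type side. The log2 change was -0.50 (SE 0.08), with an edgeR adjusted p of 0.928 and a DESeq2 adjusted p of 0.0170. Vill, a villin-like actin-binding protein, was at 1.99, 1.35 and 1.59 against 3.71, 3.46 and 5.07 CPM, and it passed with DESeq2 only (0.0189). Kctd15, a developmental regulator with a BTB domain, was at 11.5, 12.2 and 10.97 against 15.5, 16.2 and 15.8 CPM. Id3, an inhibitor of basic helix-loop-helix factors, was at 20.7, 20.9 and 22.6 against 31.4, 26.9 and 30.4 CPM. For these genes the gap between the groups was larger than the range within the knockout group. For Vill and Id3 it was slightly smaller than the range within the wild-type group. The rule that named these genes required groups without overlap.

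The tetraspanin gene Cd63, a marker of late endosomes, was at 41.4, 42.7 and 42.7 CPM in the knockout and 58.3, 52.8 and 54.4 CPM in the wild type. Gpr34, a lysophosphatidylserine receptor of microglia, was at 7.37, 5.16 and 6.91 against 11.3, 10.7 and 9.54 CPM. Of the 20 microglial markers, Gpr34 included, 12 were above 0 and the median log2 change was 0.02. Igfbp2, an insulin-like growth factor binding protein of the choroid plexus and meninges, was at 25.3, 49.2 and 47.9 against 76.9, 76.5 and 75.2 CPM. Magt1, a magnesium transporter subunit encoded on the X chromosome, had a log2 change of -0.54, and Igfn1, a protein known from muscle, one of -1.34.

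**Figure D3:**
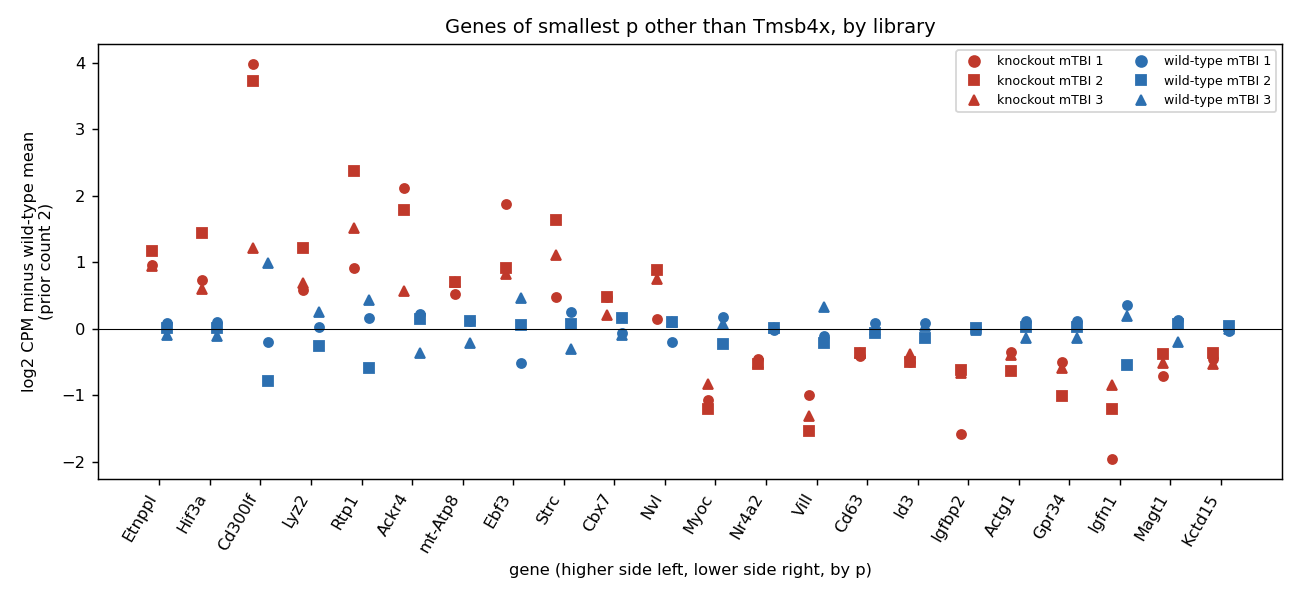
Log2 CPM minus the wild-type mean for the named genes of the higher and the lower side, those of smallest p besides Tmsb4x, with 1 point for each of the 6 libraries and shape for the replicate. The groups do not overlap in any of them, which the rule for naming them required, and the spread within groups is narrow for Nr4a2 and wide for Cd300lf.

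Actin genes and the monomer-binding partners of thymosin beta 4 were mostly lower in the knockout, without passing the adjusted test. Of 18 genes of this list, 15 had log2 changes below 0, 5 did not overlap on the lower side (5.19% of all genes), 3 were above 0 and the median was -0.11. The cytoplasmic actin gene Actb was at 946, 902 and 944 CPM in the knockout and at 1461, 1224 and 1088 CPM in the wild type (log2 change -0.43, SE 0.12). Actg1, the other cytoplasmic actin, was at 425, 347 and 412 against 587, 553 and 491 CPM (log2 change -0.46, SE 0.11). Both actins were highest in wild-type replicate 1, yet the knockout libraries were also below wild-type replicates 2 and 3. The sham libraries were at 933 to 947 CPM of Actb and 383 to 403 CPM of Actg1, the knockout level.

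Wdr1, the cofactor that helps cofilin take filaments apart, was at 189, 166 and 181 CPM in the knockout and at 218, 217 and 198 CPM in the wild type. Cofilin itself, Cfl1, was at 446, 404 and 422 against 672, 458 and 457 CPM, so that its gap rests mainly on wild-type replicate 1. The list median was -0.07 without wild-type replicate 1 and -0.17 without knockout replicate 1. The wider actin machinery was near 0. Of 23 genes for nucleation and branching 12 were above 0, with a median of 0.0040. None was at an unadjusted p under 0.05 in edgeR (3.19% of all genes). Of 31 tested genes for capping, bundling and crosslinking 19 were below 0, with a median of -0.02. The lowest p values there were those of Myl6, the myosin light chain (250, 238 and 227 against 382, 276 and 273 CPM), and Tagln3, a neuronal calponin-family protein (169, 143 and 154 against 236, 172 and 174 CPM). In both genes wild-type replicate 1 was far above the others. Integrin-linked kinase partners, a known contact of thymosin beta 4, were near 0 too, with 8 of 13 below 0 and a median of -0.05. The kinase gene itself, Ilk, did not pass the count filter and is not among the 13.

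Targets of SRF and MRTF had a median log2 change of -0.15, with 15 of 22 below 0 and 5 without overlap on the lower side (5.19% of all genes). The actins are counted in this list as well, and so are the immediate early genes Egr1, Egr2, Fos, Fosb, Junb and Arc. The median departure of the list from the 6-library mean was -0.02, -0.21 and 0.0020 in knockout replicates 1, 2 and 3. In wild-type replicates 1, 2 and 3 it was 0.12, 0.04 and 0.11. Immediate early genes, which neurons switch on after activity, had 26 of 33 members below 0 and a median of -0.21. Egr1 was at 71.3, 55.6 and 94.7 CPM in the knockout and 160, 76.6 and 125 CPM in the wild type, with overlap. Nptx2, a secreted pentraxin that gathers AMPA receptors, was at 20.2, 12.8 and 16.1 against 27.1, 20.3 and 24.6 CPM, and the closest libraries almost touched. The immediate early median was -0.05 without wild-type replicate 1. Genes known to be induced by dissociation, of which 16 were tested and several are the same immediate early genes, had a median of -0.17 and summed to 363 to 395 CPM in the knockout against 592, 365 and 444 CPM in the wild type. The part of dissociation in the immediate early values was not tested.

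Neuronal genes gave small differences. Microtubule, tau and neurofilament genes were below 0 in 18 of 25, with a median of -0.11. Tuba1a, an alpha-tubulin of neurons, was at 385, 367 and 364 CPM in the knockout and 550, 393 and 445 CPM in the wild type, and Tubb5 at 421, 335 and 373 against 453, 436 and 441 CPM. Postsynaptic glutamate genes were above 0 in 21 of 31 (median 0.08), presynaptic release genes in 17 of 29 (median 0.03) and GABA genes in 11 of 22 (median -0.0012). The syntaxin Stx1a, part of the vesicle fusion complex, was at 93.4, 87.0 and 92.8 against 112, 104 and 109 CPM, with a gap between the groups wider than the range of either. Groups did not overlap for 1 of the 29 presynaptic release genes, against 9.63% of all genes. Voltage-gated channel genes were above 0 in 23 of 27 with a median of 0.16, which was 0.05 without wild-type replicate 1.

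Nuclear genes of the respiratory chain had log2 changes of 1 sign. All 48 were below 0, with a median of -0.27, and 26 did not overlap on the lower side, against 5.19% of all genes. Cox6a1, which belongs to cytochrome c oxidase, was at 164, 154 and 163 CPM in the knockout and at 235, 196 and 183 CPM in the wild type. Ndufa3, of complex I, was at 61.1, 66.5 and 63.8 against 108, 73.4 and 72.7 CPM. Without wild-type replicate 1 the median of the list was -0.08, and with a correction for gene length it was -0.20. The 13 mitochondrially encoded genes had a median of -0.01, and 6 were above 0.

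Cytosolic ribosomal protein genes were below 0 in 45 of 50 with a median of -0.20, which was -0.02 without wild-type replicate 1. Antioxidant genes under NRF2 were below 0 in 19 of 24, and the peroxiredoxin Prdx1 was at 80.8, 79.1 and 81.3 against 123, 85.3 and 96.2 CPM. Short transcripts were high in wild-type replicate 1 in general. The deviation of a gene in that library from the 6-library mean was lower for longer exons (Spearman's rho -0.316 across 19420 genes). These genes share libraries and are not independent. In the other 5 libraries rho was 0.0534 to 0.113. The 6-library mean includes wild-type replicate 1, so these values are not independent of its own. The part of transcript length in these lists was not tested beyond the length correction.

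**Figure D4:**
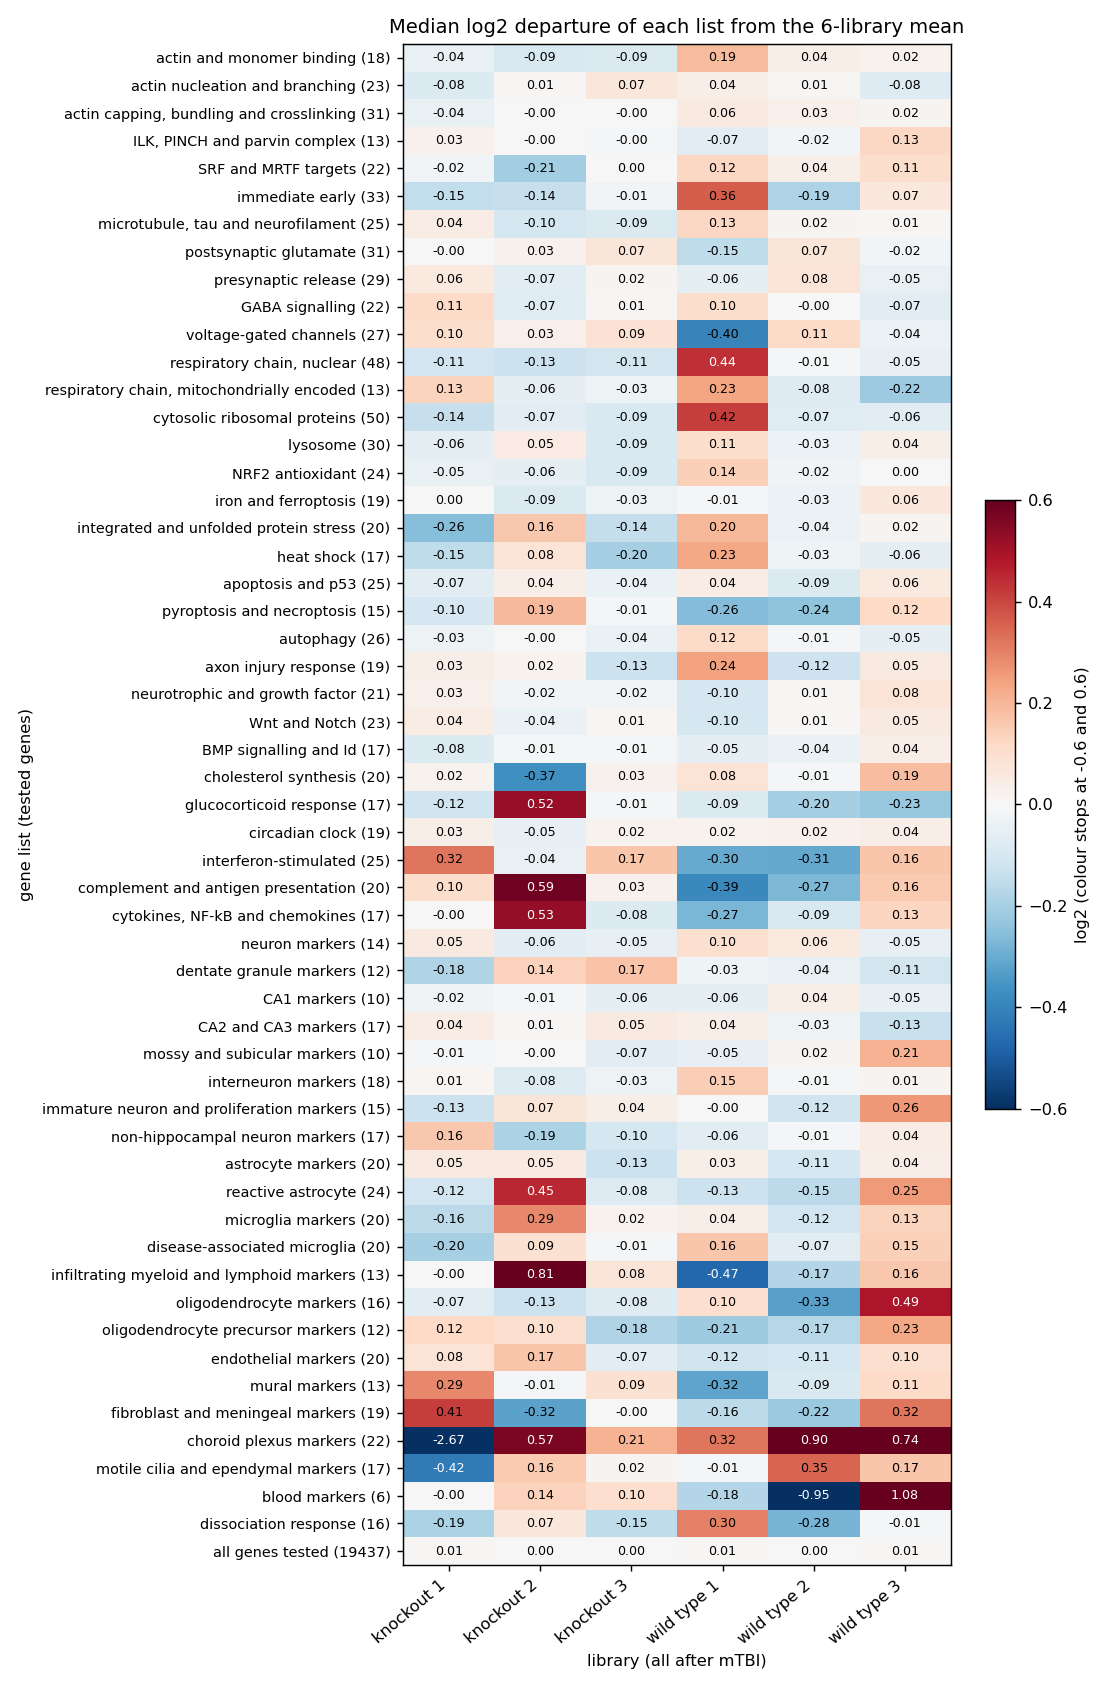
Median log2 departure from the 6-library mean of each gene list (rows) in each library (columns) from blue (low) to red (high). Wild-type replicate 1 is high for respiratory chain and ribosomal lists (0.44 and 0.42), knockout replicate 1 is low for the choroid plexus list (-2.67) and knockout replicate 2 is high for the glucocorticoid, complement and cytokine lists.

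Of the immune lists, 4 leaned to the higher side, and knockout replicate 2 was the highest library in these but for the interferon list. Disease-associated microglial genes leaned the other way by sign, with 15 of 20 tested below 0. Their median was -0.14 (-0.04 without knockout replicate 1 and -0.06 without wild-type replicate 1). Groups did not overlap for 2 members on the higher side and 2 on the lower (4.44% and 5.19% of all genes). Of this list, Cd63 was lower and Lyz2 higher in the knockout. Interferon-stimulated genes were above 0 in 21 of 25 with a median log2 change of 0.36. Mx1, an antiviral GTPase, was at 0.627, 0.332 and 0.514 CPM in the knockout and 0.0512, 0.102 and 0.200 CPM in the wild type, low levels without overlap. Irf7, the interferon regulatory factor, was at 4.36, 2.17 and 3.65 against 1.64, 1.54 and 2.67 CPM, with overlap. This list does not rest on knockout replicate 2, which was the lowest of the knockout libraries, and its median ranged from 0.19 to 0.52 when single libraries were left out. Wild-type replicate 3 lay with the knockout libraries in it.

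Complement and antigen presentation genes were above 0 in 18 of 20 (median 0.35, and 0.17 without knockout replicate 2). C3, the central complement protein, was at 2.66, 10.1 and 3.70 CPM in the knockout and 2.40, 2.66 and 1.82 CPM in the wild type, with knockout replicate 1 at the level of wild-type replicate 2. Cytokine and NF-kB genes were above 0 in 16 of 17 tested (median 0.32, and 0.06 without knockout replicate 2), and markers of infiltrating myeloid and lymphoid cells in 11 of 13 tested (median 0.44, and 0.14 without it). The 13 genes summed to 20.3, 36.8 and 21.1 CPM in the knockout and 13.9, 13.8 and 20.2 CPM in the wild type. Lyz2, the one of highest count, is also in the disease-associated microglial list, so this sum is not particular to infiltrating cells. The granulocyte marker Ly6g, the T cell markers Cd3e and Cd8a and the B cell marker Ms4a1 did not pass the count filter.

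Glucocorticoid-responsive genes were above 0 in 15 of 17 with a median of 0.32, which was 0.05 without knockout replicate 2. Plin4, a lipid droplet protein, was at 11, 62.9 and 9.09 CPM in the knockout and 7.88, 4.56 and 4.17 CPM in the wild type. Sult1a1, a phenol sulfotransferase, was at 10.8, 38.99 and 12.2 against 10.6, 8.53 and 9.16 CPM. Both genes had non-overlapping groups, as did 3 of the 17 on the higher side (4.44% of all genes). In Sult1a1 the groups almost touched, at 10.8 CPM in knockout replicate 1 and 10.6 CPM in wild-type replicate 1. In Plin4 the other knockout libraries were at 11 and 9.09 CPM, against at most 7.88 CPM in the wild type. Knockout replicate 2 carried most of the difference in both genes. Reactive astrocyte genes behaved likewise, with 16 of 24 tested above 0 and a median of 0.15 that was -0.04 without that library. Cholesterol synthesis genes were below 0 in 17 of 20 with a median of -0.19, which was -0.08 without knockout replicate 2. That library was also the lowest for Hmgcs1, an early enzyme of the pathway, at 156, 112 and 160 against 204, 155 and 193 CPM.

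Choroid plexus markers had the median farthest from 0 of the cell type lists, and a single library carried most of it. All 22 were below 0 with a median log2 change of -0.78, which was -0.25 without knockout replicate 1, and 4 did not overlap on the lower side (5.19% of all genes). Their summed level was 338, 5450 and 4458 CPM in the knockout and 4742, 6742 and 6572 CPM in the wild type. Ttr, transthyretin, the leading choroid plexus transcript, was at 22.98, 3394 and 2748 CPM in the knockout and 2956, 4039 and 4122 CPM in the wild type, and the sham libraries were at 16.5 to 17.5 CPM. Knockout replicate 1 was thus at the sham level of Ttr and the other 5 injured libraries were far above it. Igfbp2 and Calml4, which are in this list, were below the wild type in knockout replicates 2 and 3 too: Calml4, a calmodulin-like protein, was at 1.38, 8.58 and 7.53 against 13.3, 12.96 and 12.1 CPM. The part of choroid plexus tissue in the values of Igfbp2 was not tested.

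Other cell type lists lay closer to 0. Oligodendrocyte markers were below 0 in 15 of 16 with a median of -0.21. No member reached an unadjusted p under 0.05 in edgeR (3.19% of all genes). Their summed level was 7193, 8385 and 7339 CPM in the knockout against 8393, 5921 and 10600 CPM in the wild type, so that the groups overlapped. Mural cell markers were above 0 in all 13 tested (median 0.23), and none had groups without overlap (9.63% of all genes). Interneuron markers were below 0 in 17 of 18 with a median of -0.14, which was -0.07 without wild-type replicate 1. Their smallest p values included that of Dlx1, a homeobox factor of interneurons, at 25.3, 31.5 and 32.6 against 36.9, 35.6 and 35.9 CPM. Markers of dentate granule cells had a median of 0.16, those of CA1 -0.03 and those of CA2 and CA3 0.15. Groups did not overlap for 0 of 12, 1 of 10 and 4 of 17 of these markers (9.63% of all genes), and the 4 were 2 higher and 2 lower. Neuron markers as a whole had a median of -0.03 and summed to 14340 to 14620 CPM in the knockout against 13480 to 15030 CPM in the wild type.

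Lists of cell stress and death, other than pyroptosis and necroptosis, had medians near 0 and more members below than above it. Heat shock genes were below 0 in 13 of 17 (median -0.08), genes of the integrated and unfolded protein stress response in 15 of 20 (-0.09), apoptosis and p53 genes in 16 of 25 (-0.05), autophagy genes in 18 of 26 (-0.05) and lysosome genes in 24 of 30 (-0.09), against 50.7% of all genes. In apoptosis and p53 no member of 25 reached an unadjusted p under 0.05 in edgeR, against 3.19% of all genes. Iron and ferroptosis genes had a median of -0.03, with 8 of 19 tested above 0. Pyroptosis and necroptosis genes had a median of 0.17 with 9 of 15 above 0. No member of these lists passed the adjusted test.

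The 2 libraries numbered 1 were examined for how far they stood from the others. On log2 CPM of all tested genes, the first principal component (31.0% of the variance) placed wild-type replicate 1 at -62.9 and the other 5 libraries between -1.54 and 22.7. The second (24.5%) placed knockout replicate 1 at 53.5 and the others between -27.0 and 4.73. No component of these 2 divided the libraries by genotype. Of 15060 genes with a mean of at least 50 counts, wild-type replicate 1 was the highest or lowest library for 62.2%, against 20.4% to 37.9% for each of the other 5.

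The genes that set each library apart were of different kinds. Wild-type replicate 1 had 127 genes more than 2-fold below all 5 others and 3 genes that far above them. The ribosomal fusion gene Rps27a was at 153 CPM there against 57.1 to 76.8 CPM in the others, and the collagen gene Col6a3 at 2.61 against 8.33 to 16.4 CPM. Knockout replicate 1 had 94 genes more than 2-fold below all others, led by the choroid plexus genes Tmem72 (0.104 against 27.5 to 67.2 CPM), Ttr and Clic6 (1.25 against 46.6 to 77.2 CPM). It also had 15 genes that far above the rest, among them Psmc3ip (14.8 against 2.25 to 3.25 CPM) and mt-Nd4l (42.9 against 5.40 to 12.0 CPM). Shox2 (13.6 against 0.102 to 4.40 CPM) and Tcf7l2 (32.1 against 5.02 to 13.4 CPM), transcription factors known from the thalamus and habenula, stood apart by less. Knockout replicate 2 had 31 genes more than 2-fold above all others, led by Lcn2, the acute-phase lipocalin of reactive astrocytes, at 133 CPM against 0.665 to 5.97 CPM. Cdkn1a, the p53 target that halts the cell cycle, was at 22.0 CPM there against 4.15 to 6.89 CPM. Wild-type replicates 2 and 3 and knockout replicate 3 had 3, 4 and 0 genes of that kind above the rest and 12, 10 and 9 below.

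**Figure D5:**
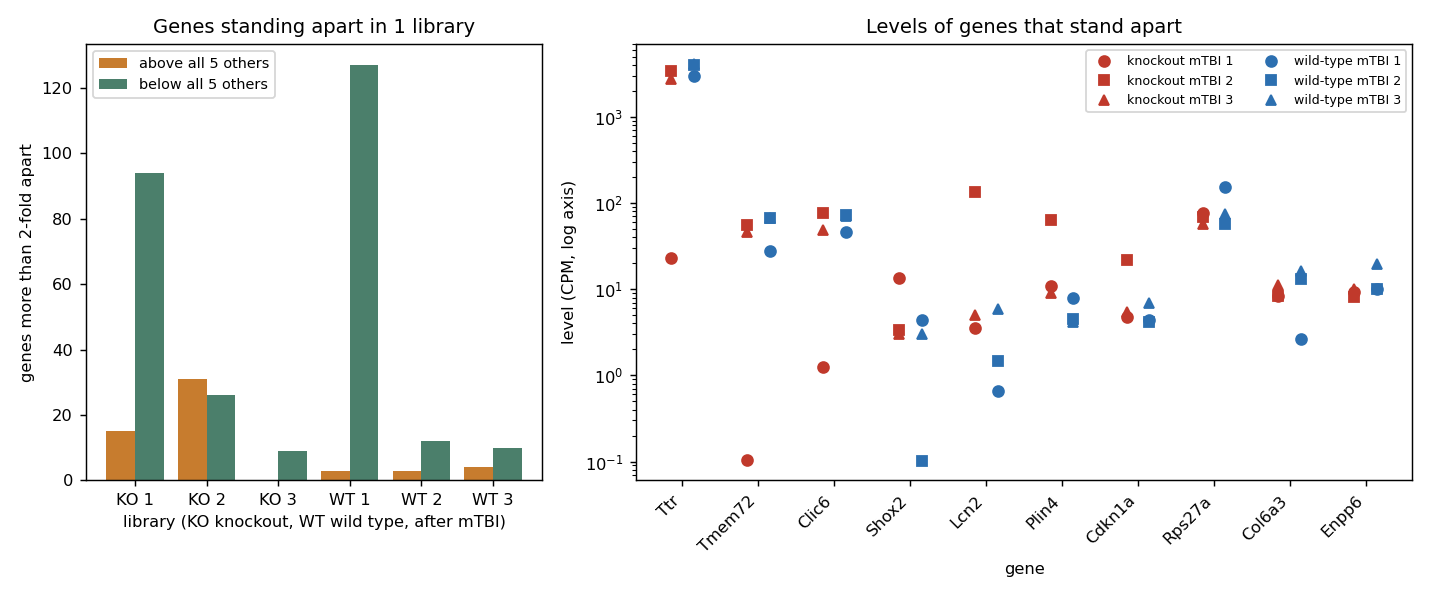
Left, bars from 0 count genes more than 2-fold above or below all 5 other libraries in each library; right, levels in CPM on a log axis of genes that stand apart, 1 point a library. The bars below reach 127 genes in wild-type replicate 1 and 94 in knockout replicate 1, and those above reach 31 genes in knockout replicate 2.

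Some genes differed sharply between libraries of 1 group. Catspere1, annotated as an unprocessed pseudogene, had 126, 4 and 4 counts in the knockout and 141, 160 and 120 counts in the wild type, so that knockout replicate 1 was on the wild-type side. Eif3j2, a copy of a translation initiation factor gene, had 245, 33 and 42 against 384, 340 and 416 counts, with knockout replicate 1 between the other knockout libraries and the wild type. The pseudogene Rpl3-ps1 had 632, 625 and 3193 against 3440, 2857 and 3009 counts, with knockout replicate 3 on the wild-type side. The sham libraries were on the side of the low knockout libraries for Catspere1 (4 to 8 counts) and Rpl3-ps1 (574 to 625 counts). Without knockout replicate 1, Catspere1 and Eif3j2 passed as lower in the knockout beside Tmsb4x, and without knockout replicate 3, Rpl3-ps1 did. These 3 genes were named after their values were seen, and all 3 are pseudogenes or copies of other genes, whose reads can be shared, so their counts are uncertain. With both libraries numbered 1 left out, 3 genes were called, all lower in the knockout: Tmsb4x, Catspere1 and Eif3j2. Tmsb4x was called under every setting tried, with log2 changes from -8.20 without wild-type replicate 3 to -7.25 without the libraries numbered 1.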

How the data were processed

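Bulk RNA-seq of tdTomato-sorted mouse hippocampal cells was compared between 3 knockout and 3 wild-type libraries after mTBI, at 38298085 to 39590872 counts a library. The deposited values are raw read counts per Ensembl gene, which the authors made, per the file headers, with featureCounts 2.0.6 on the exon features of Ensembl 98 for GRCm38. The header shows no option for read pairs, strand or multi-mapping reads, so mates were counted singly and reads of a gene and its antisense partner cannot be told apart. HISAT2, SAMtools, Trim Galore, FastQC and MultiQC are further tools in the submitters' processing notes. Symbols, positions and sequences came from GENCODE M21, which matched 55240 of 55421 genes. Every column of the table was mapped to a sample by its title.

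Genes were kept by filterByExpr (19437), scaled by TMM and tested two-sided by the quasi-likelihood method of edgeR 4.0.16 (R 4.3.3), with group as the only term. The degrees of freedom were 4 residual and 4.88 prior, and the biological coefficient of variation was 18.9%. Benjamini-Hochberg adjustment ran over every tested gene, and calls needed an adjusted p under 0.05. The scripts were tested on simulated data. Alternatives were DESeq2 1.42.0, limma 3.58.1 voom with quality weights, other scalings and filters, all 9 libraries, a block for the replicate number, a gene-length correction, halved counts and leaving out libraries. The members, 55 gene lists and tests were chosen with earlier results of these data known, and the lists are described by counts and medians without a test. Named genes were Tmsb4x and Tmsb10, in each direction the 12 genes of smallest p with a mean count of at least 20 and non-overlapping groups (predicted genes, pseudogenes and sex-linked genes left out), up to 3 genes of smallest p and 2 of highest count in each list, and for each library the 5 genes farthest above and below the other 5 libraries at a mean count of at least 50. Some genes that this rule names are not reported here.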

Additional observations from a re-analysis of the deposited data

How the results depend on the processing

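Tmsb4x was called lower under all 18 alternatives, with log2 changes from -8.20 to -7.25. The count of called genes was 1 (0 higher, 1 lower) under other scalings, the stricter filter, halved counts and the length correction. It was 3 (1 higher, 2 lower) without the count filter and with all 9 libraries, 6 (2 higher, 4 lower) with DESeq2 and 2 (1 higher) with voom quality weights. When 1 library was left out, it ranged from 1 to 5 (higher 0 to 4, lower 1 to 3): 3 lower without knockout replicate 1, 2 lower without knockout replicate 3, and 5 without wild-type replicate 3, of which 4 were higher. Without both libraries numbered 1 it was 3, all lower. The genes added by these fits of fewer libraries are named in the report with their counts, and the cause of the other differences was not tested. Same-numbered libraries showed little joint deviation (Pearson's r 0.0747, 0.0033 and -0.105 over genes). The highest r was 0.133, between knockout replicate 3 and wild-type replicate 2. With so few libraries a group, these values cannot settle whether the numbers mark pairs. With the block for the replicate number, Tmsb4x was at -7.75 (edgeR adjusted p = 0.000546) and 1 gene was called. Halving the counts left 1 gene called.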
